A study of Mus musculus with 96 samples.

Results

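Transcripts of Trp53, the gene for the mouse tumour suppressor p53, and of 9 genes that p53 switches on directly were followed in single C10 cells. The 10 genes were taken by name from the 40202 genes listed for each library: Trp53, Mdm2, Ccng1, Bax, Gdf15, Btg2, Phlda3, Zmat3, Sesn1 and Trp53inp1. C10 is a mouse lung cell line, labelled as alveolar type II epithelial. The series held 96 libraries, each from 1 cell: 48 from untreated cells (control) and 48 from cells given RO-3306, which per the labels was used at 10 nM for 36 h. The dose is given as the label writes it; the same label gives a dish size in mM, so its units may hold a typing error. RO-3306 is an inhibitor of CDK1, the kinase that drives entry into mitosis. All cells were of this 1 line, were dispensed singly with a CellenONE instrument, and had their cDNA made with SMART-seq v4, which copies whole transcripts. The labels name no separate cultures, so each group was treated as 1 sample, and no p-value or standard error was made from cells. The comparison asks how the p53 transcripts of single cells differed between treated and untreated cells.

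p53 is a transcription factor that is held at a low level in unstressed cells because MDM2, a ubiquitin ligase, marks it for destruction. Stress signals such as DNA damage release p53 from MDM2, mostly without any need for more Trp53 mRNA, and p53 then binds paired short DNA elements near its targets. Mdm2 is itself a target, which closes a negative feedback loop, and other targets arrest the cell cycle, promote cell death or adjust metabolism. The files measured RNA only, so neither the amount nor the activity of the p53 protein was read.

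The element that p53 binds is a pair of half-sites of 10 bases each, and it was looked for in the promoter windows of RefSeq on the GRCm38.p6 assembly, 250 bases before to 50 bases after an annotated transcript start. The search used the p53 half-site consensus, required its C at position 4 and its G at position 7, allowed 0 to 13 bases between the half-sites, and counted mismatches over both. The consensus reads the same on both strands, so 1 strand covers both. Windows were found for 8 of the 10 genes. Zmat3 and Trp53inp1 had none in the table. The 3 genes whose windows held a site with at most 2 mismatches are shown because they let a reader see the element the group is named for, with the half-sites in capitals and about 40 bases of context on each side, 5′ to 3′ on the gene's strand.
Ccng1, chr11:40755422-40755521, minus strand, 1 mismatch: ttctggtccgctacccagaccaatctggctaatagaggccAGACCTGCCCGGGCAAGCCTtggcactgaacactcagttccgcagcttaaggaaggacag
Bax, chr7:45467039-45467139, minus strand, 2 mismatches: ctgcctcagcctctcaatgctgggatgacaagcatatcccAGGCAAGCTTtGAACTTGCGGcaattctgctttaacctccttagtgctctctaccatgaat
Sesn1, chr10:41887213-41887315, plus strand, 2 mismatches: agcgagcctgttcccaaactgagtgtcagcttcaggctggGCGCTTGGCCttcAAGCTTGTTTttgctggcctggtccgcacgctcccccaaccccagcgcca

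The Ccng1 match lay 195 to 176 bases before the start, with the half-sites directly joined. The Bax match lay 201 to 181 bases before it with a spacer of 1 base, and the Sesn1 match 186 to 164 bases before it with a spacer of 3 bases. Sesn1 had windows at 2 starts, and the best match at its other start had 5 mismatches. Of all 32851 windows in the table, 4.09% held a match with at most 2 mismatches, and 0.627% held one with at most 1. These shares are per window, whereas a gene was counted by the best of its windows. A match is a run of letters and was not measured as a binding site here. The other 5 genes with a window held no such match within it, which says nothing of sites outside it.

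A minimum of 50000 counts and 1000 detected genes left 29 control cells and 37 RO-3306 cells. Their totals ran from 59979 to 6457215 counts in control and from 295005 to 5321880 in RO-3306, with medians of 1753427 and 2234309. No 2 kept libraries held identical values. For values per cell that depend on depth, every kept cell was reduced by random draws to 639000 reads, and 4 control and 3 RO-3306 cells were too shallow for it. At that equal depth a control cell had a median of 4576 genes with a count (2579 to 9010) and an RO-3306 cell 5958 (1953 to 7971). The sample titles of both groups include letters A to D, whose meaning is not given. The lettered sets held 10, 8, 6 and 5 kept control cells and 10, 10, 11 and 6 kept RO-3306 cells, and are used only to ask whether a direction recurred in all of them. The type II label was not borne out by its markers: the surfactant genes Sftpa1, Sftpc and Sftpd, with Slc34a2 and Napsa, were at 0 in every kept cell, and the 10 listed markers summed to 23.5 CPM (counts per 1000000 counts) in control and 27.7 in RO-3306. The 8 mesenchymal markers summed to 5575 CPM in control (1329 to 10843 per cell) and 2502 in RO-3306 (1283 to 13860), with Thy1 at 0. The 6 general epithelial markers came to 1.78 and 0.978 CPM (Krt18 and Cldn4 at 0), the 6 immune markers to 31.2 and 15.9 (Cd3e and Cd79a at 0), and the 4 endothelial markers to 0.619 and 0.149. Their part in the results below was not tested.

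Most p53 targets of the group were higher in RO-3306 cells, while Trp53 itself was not. Mdm2, Ccng1, Bax, Gdf15 and Trp53inp1 were at least 2-fold higher, Phlda3 was 1.90-fold and Zmat3 1.80-fold higher, and Btg2 and Sesn1, carried by few cells, were lower. Levels are CPM from counts pooled over kept cells within each group, and the ratio is log2 of RO-3306 over control after adding 1 CPM to each, which understates the change of low genes. Averaged over both groups, all 10 genes reached 5 CPM, Gdf15 only through RO-3306. Of the 10, 7 were higher, beside 41% of all 9374 genes of at least 5 CPM. In the group 5 were at least 2-fold higher and 0 at least 2-fold lower, beside 12.2% and 24.2% of all such genes. With edgeR's TMM factors these background shares were 15.5% and 19.7%, and with DESeq2 size factors 16% and 19.2%, so the split of 1141 higher to 2272 lower became 1450 to 1848 and 1504 to 1797. With either set of factors 7 of the 10 genes were at least 2-fold higher. The factors shift a ratio by up to 0.21 (TMM) or 0.24 (DESeq2) on the log2 scale, and less for low genes because of the added 1 CPM (0.10 and 0.12 for Gdf15). The median log2 ratio of the 10 genes was 1.13, and that of all genes of at least 5 CPM was −0.22. Without Gdf15, left out after its values were seen, the median of the other 9 was 0.92, and 4 of the 9 were at least 2-fold higher. In 6 of the 10 (Mdm2, Ccng1, Bax, Gdf15, Phlda3 and Trp53inp1) the ratio was above 0 in all 4 lettered sets, beside 13.1% of all genes, or in 5 of 9 without Gdf15. None of the 10 was lower in all 4 sets, beside 10.3%.

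Trp53, on chromosome 11 at 69471174 to 69482699 of GRCm39 (plus strand), stood at 362 CPM in control (95% Poisson interval 357 to 366) and 314.5 CPM in RO-3306 (311 to 318). Per cell it ran from 0 to 1604 CPM in control with a median of 290, and from 0 to 683 in RO-3306 with a median of 308. Control cells were more spread: 3 of 29 stood above the highest treated cell, and no treated cell stood above the highest control cell, while the medians were close. Those 3 included control D2 (1314 CPM), which at 255302 counts was too shallow for equal depth. At equal depth the highest values were 1656 CPM in control and 674 in RO-3306. The log2 ratio of −0.20 was above 0 with TMM (0.01) and DESeq2 factors (0.03). It was −0.54 and −0.33 in sets A and B and 0.13 and 0.29 in sets C and D. The level of Trp53 mRNA thus had no settled direction. Its count was fractional in 51.6% of the libraries that held one, so part of its reads was also placed elsewhere in the genome. At equal depth Trp53 had a count in 20 of 25 control cells, or 80% (Clopper-Pearson 95% interval 59.3% to 93.2%), and in 34 of 34 treated cells (89.7% to 100%). These intervals describe the counting of cells within 1 sample per group, and no difference between treatments is read from them.

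The feedback target Mdm2, whose product binds p53 and marks it for degradation, lies on chromosome 10 at 117524780 to 117546663 (minus strand). It was at 74.0 CPM in control (72.0 to 76.1) and 233 in RO-3306 (230 to 236), a ratio of 3.15 with a counting interval of 3.05 to 3.25. Per cell its lowest, median and highest values were 0, 3.52 and 1266 CPM in control and 0, 131 and 942 in RO-3306. The median control cell was thus close to 0, and the groups overlapped. The single highest cell was control A12, which at 176892 counts was too shallow for equal depth. At equal depth the highest values were 413 CPM in control and 909 in RO-3306. A count was found at equal depth in 13 of 25 control cells (52%) and 28 of 34 treated cells (82.4%). The log2 ratio of 1.64 was positive in each lettered set, from 0.56 in set C to 2.99 in set D. Giving each cell equal weight, by averaging CPM over cells, brought it to 0.996, just under the 2-fold mark.

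Among genes that act on the cell cycle, Ccng1 encodes cyclin G1, which binds a subunit of the phosphatase PP2A and takes part in the MDM2 loop. It lies on chromosome 11 at 40639379 to 40646155 (minus strand), and its promoter match is printed above. Ccng1 stood at 241 CPM in control (237 to 245) and 661 CPM in RO-3306 (656 to 667), a ratio of 2.74 (2.70 to 2.79). Per cell it ran over 0, 203 and 1486 CPM (lowest, median, highest) in control and 0, 485 and 2113 in RO-3306. The groups overlapped, with 5 control cells above the treated median and 2 treated cells above the highest control cell. The log2 ratio of 1.45 was positive in all 4 sets, from 0.60 in set D to 2.37 in set C.

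Btg2, an antiproliferative protein that recruits the machinery for mRNA deadenylation, lies on chromosome 1 at 134002603 to 134006893 (minus strand). Its summed level was lower with RO-3306, 11.2 CPM (10.6 to 11.95) against 20.6 (19.6 to 21.8), a log2 ratio of −0.82. Of the control counts, 81.8% came from the single cell A3, and without the top cell of each group the log2 ratio was 1.04. The number of cells pointed the other way from the sum: at equal depth 5 of 25 control cells (20%, 6.83% to 40.7%) and 14 of 34 treated cells (41.2%, 24.6% to 59.3%) had a count. The highest cells were at 200 CPM in control and 208 in RO-3306. The direction of Btg2 therefore rested on 1 cell.

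Bax, the pore-forming protein of the outer mitochondrial membrane that commits a cell to apoptosis, gave the most even difference over cells. It lies on chromosome 7 at 45111119 to 45116344 (minus strand), and its promoter match is printed above. Its level was 193 CPM in control (189 to 196) and 492 in RO-3306 (488 to 497), a ratio of 2.55 (2.504 to 2.61). Per cell the lowest, median and highest values were 0, 182 and 574 CPM in control and 3.88, 472 and 972 in RO-3306. The groups overlapped only in part: 35 of 37 treated cells were above the control median, 1 of 29 control cells was above the treated median, and 9 treated cells were above every control cell. The log2 ratio of 1.35 lay between 0.74 and 2.10 in the 4 sets.

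Phlda3, a pleckstrin-homology protein that competes with AKT for membrane lipids and so dampens survival signalling, lies on chromosome 1 at 135693823 to 135696872 (plus strand). It was at 170 CPM in control (167 to 173) and 323 in RO-3306 (319 to 327), a ratio of 1.90 (1.86 to 1.94). Per cell it ran over 0, 144 and 1118 CPM in control and 1.94, 293 and 775 in RO-3306. Every treated cell thus had a count, against 23 of 29 control cells. The highest cell was control D2, which at 255302 counts was too shallow for equal depth. At equal depth the highest values were 581 CPM in control and 789 in RO-3306. The log2 ratio of 0.92 was positive in all 4 sets (0.66 to 1.62). It passed the 2-fold mark with TMM (1.13) and DESeq2 factors (1.15) and was 0.52 with cells weighted equally.

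Trp53inp1, a stress-induced nuclear protein that promotes p53-dependent cell death and autophagy, differed more in the number of cells with a count than any other of the 10 genes at equal depth. It lies on chromosome 4 at 11156441 to 11174379 (plus strand). A count was found in 2 of 25 control cells (8%, interval 0.984% to 26.0%) and in 23 of 34 treated cells (67.6%, 49.5% to 82.6%). Its level was 20.5 CPM in control (19.4 to 21.6) and 80.3 in RO-3306 (78.4 to 82.1), a ratio of 3.92 (3.70 to 4.16). Per cell the lowest, median and highest values were 0, 0 and 557 CPM in control and 0, 29.2 and 383 in RO-3306. The highest control cell, A11, held 79.4% of the control counts, and without the top cell of each group the log2 ratio moved from 1.92 to 3.62. In set A its level was 43.4 CPM in control and 54.7 in RO-3306, and in set B 10.7 and 67.8. The control cells of sets C and D had no count at all, while treated cells stood at 70.7 CPM in set C and 127 in set D.

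Gdf15 encodes a secreted stress cytokine of the TGF-beta superfamily, and it is also a target of the integrated stress response. It lies on chromosome 8 at 71082043 to 71085106 (minus strand). In control it had 5 counts, all in cell C12, or 0.0757 CPM (0.0246 to 0.177). In RO-3306 it reached 14.3 CPM (13.49 to 15.04), a ratio of 188 with a wide counting interval of 80.5 to 581. It was carried by a minority of cells: 10 of 37 treated cells had a count, 9 of them above the 2.85 CPM of the 1 control cell, and the highest, D6, had 82.4 CPM and 27.7% of the group's counts. At equal depth these were 1 of 25 control cells (4%, 0.101% to 20.4%) and 10 of 34 treated cells (29.4%, 15.1% to 47.5%). Treated cells of every lettered set held some, from 8.83 CPM in set A to 17.1 in set C.

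Zmat3, a zinc-finger protein that binds RNA and acts on splicing, and Sesn1, a leucine sensor that restrains mTORC1, were the remaining targets. Zmat3 had a count in most treated and few control cells, and Sesn1 in few cells of either group. Zmat3, on chromosome 3 at 32388941 to 32419814 (minus strand), was at 19.0 CPM in control (18.0 to 20.1) and 34.1 in RO-3306 (33.0 to 35.4), a log2 ratio of 0.81. Its sign differed between sets (5.93 in A, −0.23 in B, 1.03 in C and −1.50 in D, with no control count in A), and without set A the ratio was −0.11. By number of cells it was more frequent in treated cells, 21 of 34 (61.8%, 43.6% to 77.8%) against 6 of 25 (24%, 9.36% to 45.1%) at equal depth. Sesn1, on chromosome 10 at 41686570 to 41784432 (plus strand), was at 11.9 CPM in control (11.1 to 12.8) and 8.07 in RO-3306 (7.50 to 8.67), a log2 ratio of −0.51. It had a count in 4 of 25 control and 5 of 34 treated cells at equal depth, or 16% and 14.7%, and 66.0% of the treated counts came from cell A5. Its ratio was 1.88 in set A and −4.31 in set B, so no direction can be given. For all genes of at least 5 CPM, 72% had a count in a larger share of treated than of control cells at equal depth, so a larger share alone was common.

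**Figure D1:**
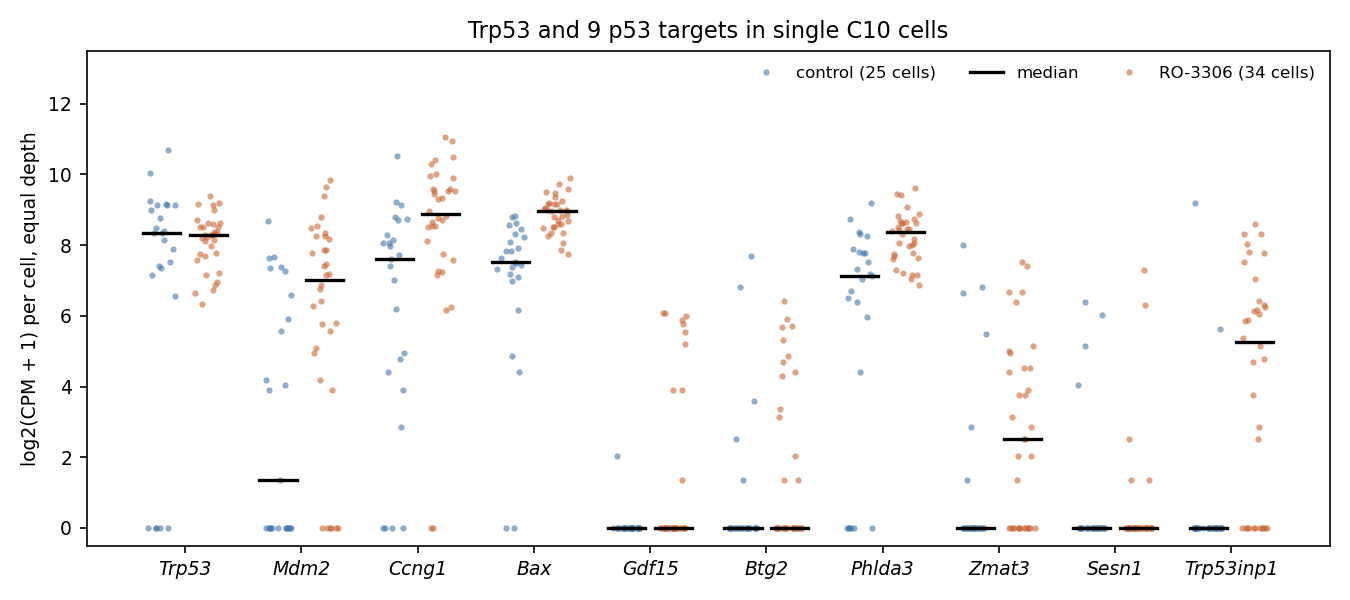
Level of Trp53 and the 9 targets in each cell at equal depth, as log2(CPM + 1), 1 point per cell (25 control, 34 RO-3306), with a bar at each group's median. Bax, Ccng1 and Phlda3 sit higher in RO-3306 with overlapping points, Trp53 does not, and Gdf15 lies at 0 in all but 1 control cell.

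**Figure D2:**
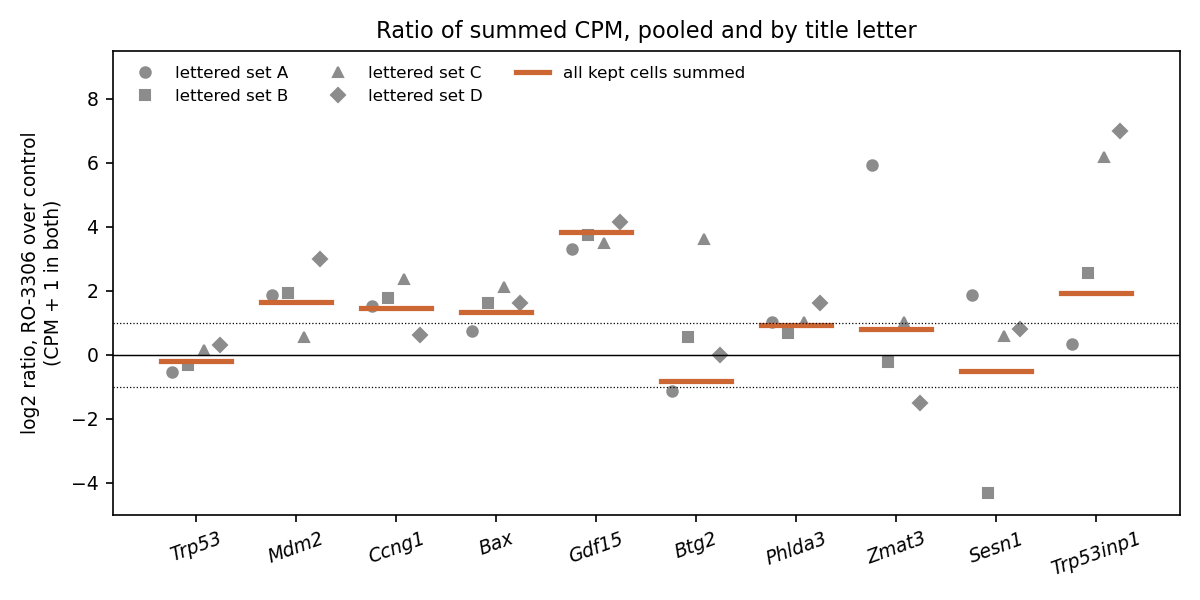
Log2 ratio of RO-3306 over control (1 CPM added to both) for each of the 10 genes, as a bar from all kept cells and as grey symbols from each lettered set, with dotted lines at 2-fold. Symbols of Mdm2, Ccng1, Bax, Gdf15, Phlda3 and Trp53inp1 are above 0 in all 4 sets, whereas those of Trp53, Zmat3, Btg2 and Sesn1 fall on both sides of 0.

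Levels of different genes were compared only per kilobase of their longest annotated mRNA. In control the order was Bax (222 CPM per kb), Trp53 (194), Phlda3 (119), Ccng1 (68.7), Mdm2 (23.5), Btg2 (7.52), Trp53inp1 (3.79), Sesn1 (3.14), Zmat3 (2.44) and Gdf15 (0.0490). Each neighbour in that order had an interquartile range over cells that overlapped the next, so none of these steps exceeded the spread between cells. In RO-3306 the order was Bax (568), Phlda3 (225), Ccng1 (188), Trp53 (168), Mdm2 (74.1), Trp53inp1 (14.9), Gdf15 (9.22), Zmat3 (4.38), Btg2 (4.10) and Sesn1 (2.12). The interquartile ranges did not overlap between Bax and Phlda3 or between Trp53 and Mdm2, and they did between all other neighbours. Counts were made over whole gene spans, introns included, so reads from introns add to these levels. The log2 ratio also moved with mRNA length: its median was 0.27 in the shortest 10% of genes and −0.88 in the longest 10%, and Spearman's rho over genes was −0.36. Trp53inp1 and Zmat3, with the longest mRNAs of the group (5404 and 7797 nt), stood above the medians of genes of like length (−0.83 and −0.88). Bax, the shortest at 867 nt, stood at 1.35 against 0.27.

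Summed within a cell at equal depth, the 9 targets without Trp53 came to 707 CPM in the median control cell (range 0 to 2603, quartiles 476 and 900) and to 1542 in the median treated cell (range 674 to 4316, quartiles 1178 and 2097). Of the treated cells, 33 of 34 were above the control median and 6 were above every control cell, and 1 of 25 control cells, B8, was above the treated median. Most treated cells were thus above the typical control cell, with overlap at the edges. At full depth, with the shallow cells included, 36 of 37 treated cells were above the control median, 2 were above the highest control cell (A12, at 3553 CPM), and 3 of 29 control cells were above the treated median. With Trp53 included the medians were 1042 and 1790 CPM, a ratio of 1.72. A control cell held counts for a median of 5 of the 10 genes (quartiles 4 and 6, range 0 to 8) and a treated cell for 7 (6 and 8.75, range 3 to 9). At least 5 genes were found in 15 of 25 control cells and 32 of 34 treated cells. Treated cells also had more genes of any kind with a count at this depth, with medians of 5958 against 4576. Of all genes of at least 5 CPM, 72% had a count in a larger share of treated than of control cells. The control cell D7 had none of the 10 at 2579 genes with a count, the fewest of any thinned control cell. Over cells, the sum of the 9 targets had a Spearman's rho of 0.22 in control and 0.03 in RO-3306 with the number of genes with a count, and 0.15 and 0.21 with total counts.

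Co-expression of the 10 genes within a group was weak for most pairs. Spearman's rho over cells was computed for the 45 pairs at equal depth, on 25 control and 34 RO-3306 cells, as a description with no p-value. The cells of a pair share their library and depth, and genes at 0 in most cells give tied ranks. The median rho was 0.04 in control (−0.32 to 0.43) and 0.12 in RO-3306 (−0.22 to 0.60), and in each group 7 of 45 pairs were above 0.3. The median pair of 2900 well-detected genes had 0.028 in control and 0.024 in RO-3306, and 10.4% and 6.78% of those pairs were above 0.3. For the 10 pairs among Trp53, Mdm2, Ccng1, Bax and Phlda3, which were each detected in 50% or more of both groups' cells, the medians were 0.087 and 0.169. The upper quartile of the pairs of well-detected genes was 0.175 in control and 0.150 in RO-3306. The median of these 10 pairs was thus above that quartile in RO-3306 and below it in control. In RO-3306 the pairs among the targets Mdm2, Ccng1, Bax and Phlda3 ran from 0.12 to 0.45. Trp53 with each of these targets ran from −0.22 to 0.04. In control the same ranges were 0.016 to 0.41 and −0.12 to 0.43. Over all 45, most pairs carried values too small to be read as a relation at these numbers of cells.

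The pairs with the highest rho in treated cells joined Mdm2, Ccng1 and Zmat3. Ccng1 with Zmat3 had a rho of 0.60 with both present in 21 of 34 cells, Mdm2 with Zmat3 0.54 (20 cells), and Mdm2 with Ccng1 0.45 (27 cells). In control cells the same pairs stood at −0.08, −0.03 and 0.05. Bax with Phlda3 was at 0.41 in RO-3306 and 0.12 in control. The highest control values were Trp53 with Ccng1 at 0.43 and Ccng1 with Phlda3 at 0.41, which in RO-3306 were −0.22 and 0.22. The pairs that ranked highest thus differed between the groups, and the differences were not tested. Gdf15 with Btg2 stood at 0.44 in RO-3306, from 8 cells with both.

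**Figure D3:**
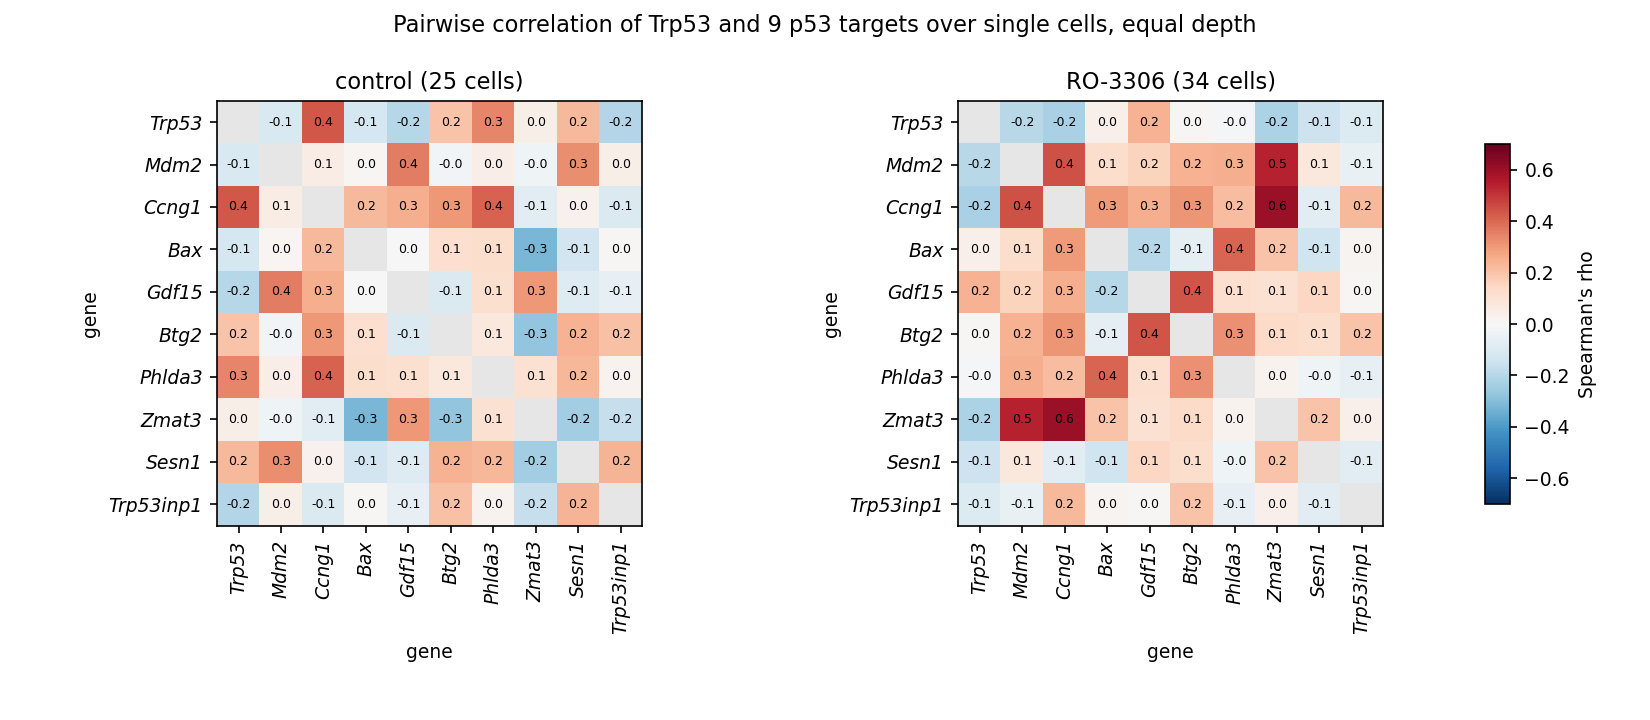
Spearman's rho between each pair of the 10 genes over cells thinned to 639000 reads, 25 control cells (left) and 34 RO-3306 cells (right), from blue (below 0) to red (above 0). The reddest squares in RO-3306 are those of Ccng1 and Mdm2 with Zmat3, and most squares in both panels are pale.

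Cdkn1a, the gene for the cyclin-dependent kinase inhibitor p21 and the best-known arrest target of p53, was kept outside the 10 genes and served as a readout to set beside them. It stood at 78.9 CPM in control (76.8 to 81.1) and 287 in RO-3306 (283 to 290), a log2 ratio of 1.85, and was higher in all 4 sets (1.12 to 3.69). At equal depth its median per cell was 14.1 CPM in control (0 to 438) and 224 in RO-3306 (0 to 1089), and 33 of 34 treated cells were above the control median. Within each group, cells with more Cdkn1a also had a larger sum of the 9 targets. The rho with that sum was 0.71 over the 25 control cells and 0.45 over the 34 treated cells. Gene by gene it was uneven. In control it ran from −0.27 (Zmat3) and 0.02 (Sesn1) to 0.53 (Ccng1). In RO-3306 it ran from 0.096 (Sesn1) and 0.12 (Bax) to 0.44 (Mdm2) and 0.48 (Ccng1). Trp53 mRNA showed no such relation with the sum of the 9 targets, with a rho of 0.14 in control and −0.20 in RO-3306. The sum of 12 mitotic genes gave 0.07 and 0.02 with the 9 targets, and the mitochondrial share of counts gave 0.41 and 0.24. Gdf15 had a rho with the summed integrated stress response list (Ddit3, Atf4, Atf3, Chac1, Trib3 and Asns) of 0.28 in control, where 1 cell had a count, and 0.42 in RO-3306. In RO-3306 Gdf15 had similar values with Cdkn1a (0.41) and with the number of genes with a count (0.37). With Ddit3 alone Gdf15 had 0.13 in RO-3306. The stress list had a rho of 0.01 in control and −0.28 in RO-3306 with the sum of the 9 targets. Any part of the stress response in the level of Gdf15 was not tested.

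**Figure D4:**
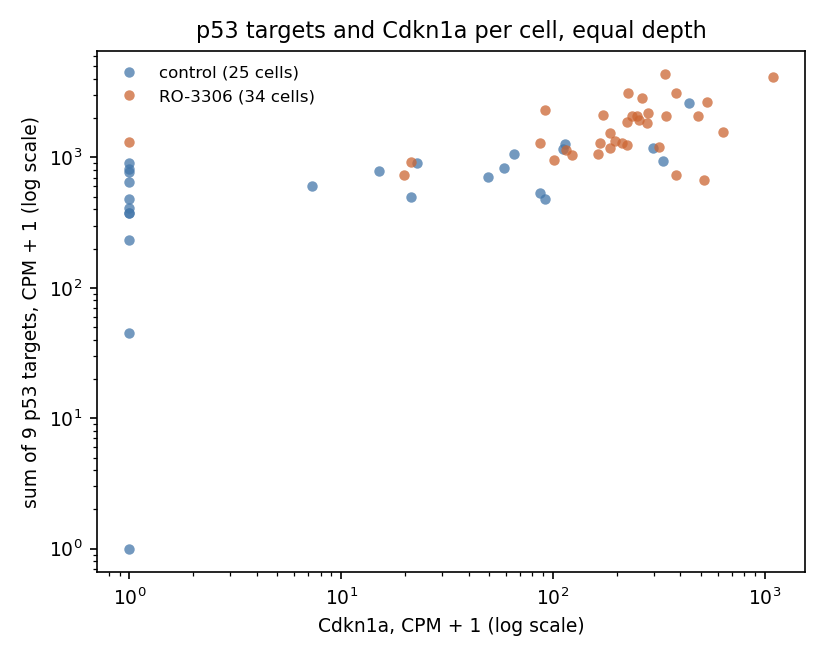
Summed CPM of the 9 targets without Trp53 (vertical) against Cdkn1a CPM (horizontal) in each cell at equal depth, both plus 1 on log scales, for 25 control and 34 RO-3306 cells. Treated cells lie up and to the right of most control cells, and within each group cells with more Cdkn1a tend to have the larger sum (rho 0.71 in control and 0.45 in RO-3306).

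Genes most like the 10 in their variation over cells were sought among 2895 other genes that averaged 50 CPM or more and were detected in 50% or more of the cells in both groups. Likeness was the mean of the rho in control and the rho in RO-3306 with the sum of the 10 genes. Cdkn1a ranked first at 0.47 (0.51 in control, 0.44 in RO-3306), followed by Gfer at 0.47 (0.47 and 0.46), a sulfhydryl oxidase of the mitochondrial intermembrane space. Sqstm1, the autophagy receptor p62, had 0.45 (0.56 and 0.34). ND2, a mitochondrially encoded subunit of respiratory complex I, had 0.41 (0.55 and 0.26), and Kif5b, a kinesin motor, 0.40 (0.48 and 0.33). The median gene stood at 0.0077, with quartiles of −0.09 and 0.10 and a range of −0.48 to 0.47.

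Among 32 other p53 targets from a list, 27 had at least 5 CPM, and Pmaip1 and Perp were at 0 in all kept cells. Of the 27, 10 were at least 2-fold higher (37.0%) and 7 at least 2-fold lower (25.9%), beside 12.2% and 24.2% of all genes. Plk3 reached the minimum only through RO-3306, and without it 9 of 26 were at least 2-fold higher (34.6%). Their median log2 ratio was 0.23, beside −0.22 for all genes. With cells weighted equally it was −0.22, beside −0.18 for all genes. In all 4 sets 6 of the 27 were higher (5 of 26 without Plk3) and 1 was lower, beside 13.1% and 10.3% of all genes. The highest ratios were 2.72 for Dcxr (25.03 to 171 CPM), a carbonyl reductase found in 8 of 29 control and 32 of 37 treated cells, and 2.48 for Plk3 (4.60 to 30.3 CPM), a stress-responsive kinase found in 3 and 12 cells, with 72.4% of its control counts in cell B2. Cdkn1a came next. The lowest were −2.37 for Fdxr (24.5 to 3.92 CPM), the mitochondrial ferredoxin reductase, −1.97 for Apaf1 (40.3 to 9.57 CPM), the scaffold of the apoptosome, and −1.75 for Gls2 (9.31 to 2.06 CPM), a mitochondrial glutaminase. These low genes were found in 4 to 7 control cells and 4 to 9 treated cells, and cell B5 held 71.2% of the control counts of Apaf1, whose sign differed between sets, as did that of Gls2. The wider list therefore held values in both directions.

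Genes that act on p53 were mostly at lower summed levels with RO-3306. Of 20 listed regulators, 18 had at least 5 CPM, and 16 of these were lower, beside 5526 of all 9374 genes of at least 5 CPM. Of the 18, 0 were at least 2-fold higher and 9 (50%) at least 2-fold lower, beside 12.2% and 24.2% of all genes. Their median log2 ratio was −0.95, and it was −0.37 after subtracting the median of the same 10% class of mRNA length. From medians over cells, which gave a value for 6 of them, it was 0.49, beside 0.655 for all genes taken the same way. In all 4 sets 6 of the 18 were lower and 0 were higher, beside 10.3% and 13.1% of all genes. Mdm4, the MDM2 relative that masks the p53 activation domain, stood at 30.4 CPM in control and 33.9 in RO-3306 (log2 ratio 0.15, and 1.01 with cells weighted equally). The highest ratios besides it were 0.50 for Rchy1 (37.1 to 52.96 CPM), a ubiquitin ligase that acts on p53, and −0.08 for Rpl11 (471 to 447 CPM), a ribosomal protein that binds MDM2. The lowest were −4.16 for Atr (18.3 to 0.0847 CPM), a DNA-damage kinase found in 9 control and 4 treated cells, −2.78 for Usp7 (34.1 to 4.11 CPM), which deubiquitinates MDM2 and p53, and −2.10 for Hipk2 (29.8 to 6.19 CPM), a kinase that phosphorylates p53. Atr and Usp7 were lower in all 4 sets. Counts were fractional in 85.5% of the libraries with Mdm4 and 72.0% of those with Rpl11. Other genes overlap 60.1% of the Hipk2 span. Cdkn2a, whose locus encodes the MDM2 inhibitor ARF, had 2 counts in 1 control cell and 0 in RO-3306.

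**Figure D5:**
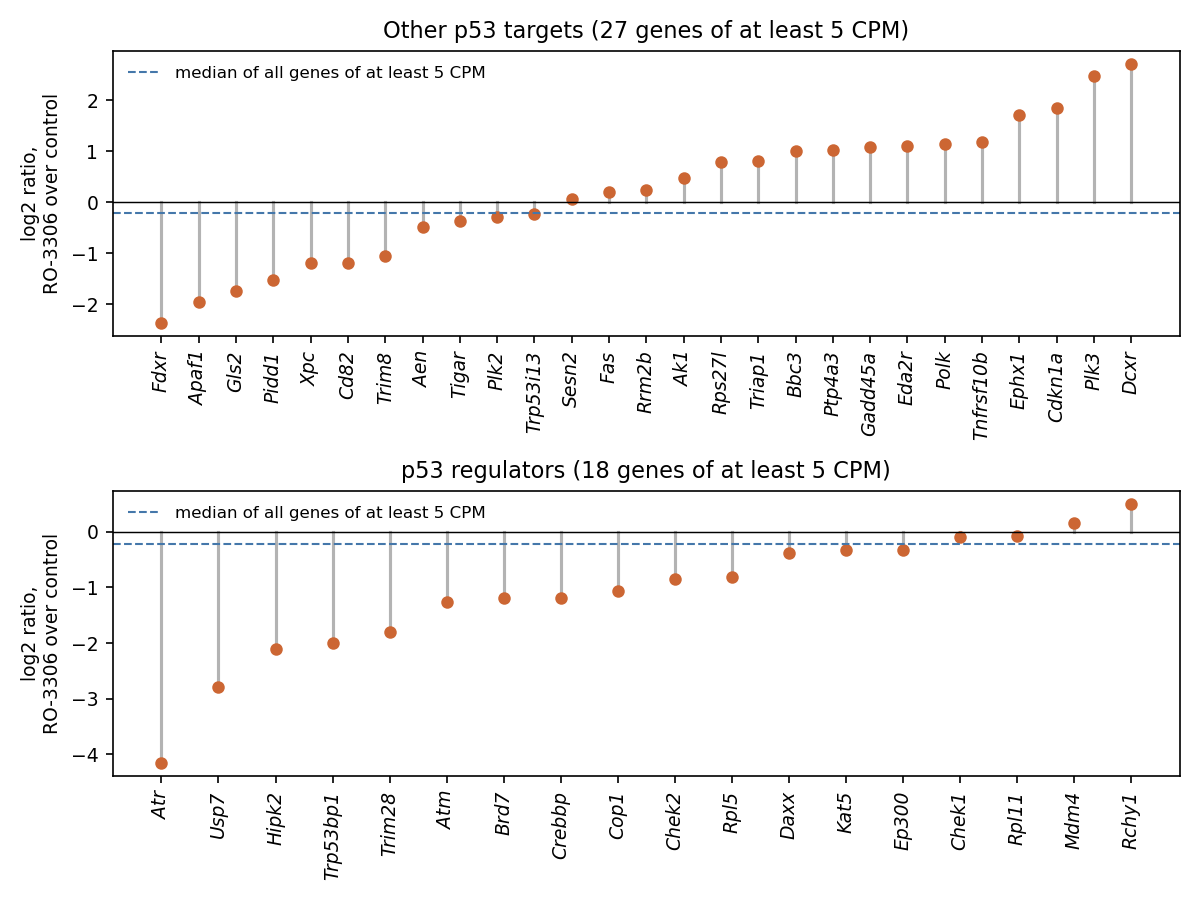
Log2 ratio of RO-3306 over control for the 27 other p53 targets (top) and the 18 p53 regulators (bottom) of at least 5 CPM, 1 point per gene in order of ratio, with a dashed line at the median of all genes (−0.22). The other targets spread to both sides of 0, from Fdxr to Dcxr. Of the 18 regulators 16 lie below 0, as do 5526 of all 9374 genes of at least 5 CPM.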

How the data were processed

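The authors deposited expected counts per gene for each library, which per the file headers come from featureCounts 2.0.3, run on GRCm39 with RefSeq genes. The headers also record whole gene spans as features, and reads at several places split into equal fractions. They give no strand option. FastQC and STAR are named in the submitters' processing notes, with no version used here. A count more than 1e-06 from a whole number was called fractional, which held for 0% (Gdf15) to 51.6% (Trp53) of the libraries with a count of each of the 10 genes. Reads carry no molecular identifiers, so intervals cover counting error only.

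Counts were rounded to whole numbers for intervals and thinning. They were summed over kept cells, scaled to a total of 1000000 (CPM), and compared as log2 ratios with a pseudocount of 1 CPM. At least 2-fold means a log2 ratio of at least 1. Intervals at the 95% level are exact Poisson for sums, Clopper-Pearson for shares and exact conditional binomial for ratios. Each group was 1 sample, so no test across samples was possible. The thinning depth is percentile 10 of kept totals, rounded down to a multiple of 1000. Libraries under the minimum, 19 control and 11 RO-3306, were left out. No doublet caller was run because cells were dispensed singly. mRNA lengths came from GENCODE M21 by symbol (97.2% of 9374 genes), and promoter windows from RefSeq on GRCm38.p6.

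The 10 genes and the lists were chosen with earlier results of these data known. Of the other lists, Cdkn1a, Mdm4, the 3 highest and the 3 lowest ratios are named, and the 5 genes most like the sum. Alternatives were other scaling factors, pseudocounts, cell and gene minimums, equal weight per cell, thinning, length, leaving out top cells and leaving out each lettered set. Leaving out Gdf15 or RO-3306 cell B3 was chosen after seeing the data. Python 3.11.15, numpy 2.4.6, pandas 2.3.3, scipy 1.17.1, and scaling factors of edgeR 4.0.16 and DESeq2 1.42.0 in R 4.3.3 were used. The steps were tested on simulated data.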

Additional observations from a re-analysis of the deposited data

Results flagged for a closer look

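Libraries below the minimum for a cell still held counts of the 10 genes, a signal outside the cells compared. In the 11 RO-3306 libraries left out, 131 of 1162603 counts fell on the 10 genes, or 113 CPM (Poisson 95% interval 94.2 to 134), in 7 libraries, and library B8 gave 67 of them (51.1%). The 19 control libraries left out had 18 of 341166 counts, or 52.8 CPM (31.3 to 83.4), in 6 libraries, and library D1 gave 10 of them (55.6%). In each group 1 library thus gave most of the counts. The other 10 RO-3306 libraries held 64 and the other 18 control libraries held 8. Both levels were far below the kept cells, where the sums were 1112 CPM in control and 2172 in RO-3306. These libraries entered no comparison.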

How the results depend on the processing

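Over 280 alternatives to 18 values, 0 changed the direction of a value of at least 2-fold, 119 left the value equal or within its counting interval (for counts of genes, within 1.5 times) and 161 moved it. Some of the 119 could not have moved. A minimum of 1 CPM cannot change the ratio of a single gene, nor the median of the 10. A limit of 20% on the mitochondrial share removed only RO-3306 cell B3, so it repeats leaving out that cell. At equal depth it removed no cell. Mdm2, Ccng1, Bax and Trp53inp1 stayed above 0 under all 17 alternatives of each, the lowest log2 ratios being 0.996, 1.14, 1.08 and 1.47. Phlda3 also stayed above 0 (0.52 to 1.15), while Trp53 (−0.34 to 0.09), Btg2 (−1.34 to 1.04), Zmat3 (−0.11 to 2.77) and Sesn1 (−3.19 to 0.66) fell on both sides of it. Gdf15 was above 0 in 16 of 17. It stood at 0 with medians over cells, 1.92 with a pseudocount of 5 CPM and 6.35 with 0.1 CPM. The median log2 ratios of the 10 genes, the other targets and the regulators were, in this order, 1.34, 0.44 and −0.75 with TMM factors, and 1.37, 0.47 and −0.72 with DESeq2 factors. They were 0.76, −0.22 and −0.80 for means over cells, where all genes stood at −0.18. For medians over cells, which used 6, 13 and 6 genes, they were 1.31, 0.53 and 0.49, where all genes stood at 0.655. The other targets thus turned below 0 with means and the regulators above 0 with medians. With medians both of these lists stayed below the median of all genes. Without the top cell of each gene in each group the median log2 ratios, in the same order, were 1.34, 0.69 and −0.87, and with length subtracted 1.38, 0.41 and −0.37. A minimum of 1 CPM gave 0.35 for the other targets and −0.84 for the regulators, and leaving out Gdf15, chosen after seeing the data, 0.92 for the 10 genes. Without RO-3306 cell B3, whose mitochondrial share was 56.0% and which was also singled out after seeing the data, the 10 genes stood at 1.14. Leaving out each lettered set in turn gave 1.01 to 1.41, 0.17 to 0.32 and −0.90 to −0.72, and 5 to 7 genes at least 2-fold higher. The ratio of the per-cell sums was 1.64 at full depth, 2.12 with at least 1000000 counts per cell, and 1.66 to 2.06 without each set. From the mean log2(CPM + 1) of the 10 genes, 2 to the difference of group medians was 3.17, which is not a ratio of sums. The median pair correlation in control and RO-3306 was 0.11 and 0.063 by Pearson, 0.076 and 0.16 at full depth, 0.078 and 0.11 centred within sets, and without each set −0.017 to 0.070 and 0.080 to 0.14. The cause of these moves was not tested. No paired analysis was possible because the labels name no culture and the numbers in the titles mark single cells. Depth limits Gdf15, with 5 control counts, and genes found in few cells.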
